A study of Mus musculus with 10 samples.

Results

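EML-C1 is a murine haematopoietic progenitor cell line with both erythroid and myeloid potential. The comparison here sets the Sca1-low fraction of cells given erythropoietin (EPO) for 3 days against the Sca1-low fraction of cells given interleukin-3 and all-trans retinoic acid for the same time. It rests on 2 of the 10 arrays analysed here, 1 on each side, and 13017 of the 20656 named genes on the array were well above background on at least 1 of them. EPO Sca1-low cells had been cultured with 10 ng/ml EPO. IL-3/retinoic acid Sca1-low cells had been cultured with IL-3 at 10 ng/ml plus retinoic acid at 10 µM. EML-C1 cells were maintained in horse serum with BHK/MKL conditioned medium, and untreated cells received no added factor. The label of the IL-3/retinoic acid cells also names GM-CSF, but per the labels' protocols 10 ng/ml GM-CSF was added only after day 3. Cells given both sets of factors (combined treatment), Sca1-high fractions of the same cultures, day 6 cells and untreated day 0 cells appear below only to place this difference. Each group is 1 bulk sample of 1 cell line on 1 array, so no value has a replicate check and no p-value is given.

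Erythropoietin acts through its receptor, the kinase JAK2 and the transcription factor STAT5, and sustains the survival and haemoglobin build-up of erythroid precursors. Interleukin-3 signals through the common beta chain shared with the GM-CSF receptor, which also uses JAK2 and STAT5, and supports myeloid progenitors and mast cells, while retinoic acid acts through nuclear receptors and drives granulocytic maturation of progenitors. Sca1, encoded by Ly6a, is a surface protein of multipotent progenitors that is lost as many lineages commit.

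Levels are given as log2 of the processed signal minus the 75th percentile of the array, and differences as EPO minus IL-3/retinoic acid. The Sca1 sort was visible in Ly6a, which stood at -4.25 in EPO Sca1-low cells, not well above background, and at -3.43 in IL-3/retinoic acid Sca1-low cells. In the Sca1-high fractions the Ly6a level was 4.76 with EPO and 2.64 with IL-3/retinoic acid, and in untreated cells it was 3.02. Both arrays of the comparison lay on the same slide and carried the quality summary ExtractionEvaluate. The EPO Sca1-low array was the dimmest of the 10, with a 75th percentile of 309 intensity units, against 637 on the IL-3/retinoic acid Sca1-low array. The 6 bright spike-in probes did not share that deficit, with a geometric mean of 11267 on the EPO array and 9433 on the IL-3/retinoic acid array. Of the genes tested, 92.6% were well above background on the EPO array and 95.8% on the IL-3/retinoic acid array. The 399 probes spotted 10 times had a median SD between spots of 0.09 on the EPO array and 0.07 on the IL-3/retinoic acid array. Means of their 10 spots gave a standard error of 0.04 for a difference. The differences of different probes of a gene had a median SD of 0.22. An SD and a standard error of 10 spots are unlike measures and cannot be compared directly. Genes of short span also leaned towards EPO on this array pair alone among the 3 pairs examined, with a median difference of 0.53 in the shortest and -0.35 in the longest of 4 groups, as the plot by gene span shows.

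At the 2-fold threshold 1581 genes, or 12.1%, were higher in EPO Sca1-low cells, and 1708 genes, or 13.1%, were lower. Together 25.3% of the genes tested were apart in either direction. Every list count below is to be read beside these shares. The threshold fell in a dense range, since the lowest called difference was 1.0001 and the highest uncalled one 0.99997. On the lower side 491 of the higher genes and 683 of the lower genes were not well above background, and for these genes the folds below are given as "at least", counted on the dim side from the gene's own level or from the lowest level well above background, whichever was higher. For Plac8 and S100a9 below, it was their own level. With quantile scaling over all 10 arrays, 1287 genes were higher and 1773 lower, 42.1% of calls being higher. Cyclic loess of the 2 arrays gave 1161 higher and 2002 lower genes, 36.7% of calls being higher, compared with 48.1% under the 75th percentile scaling. On the scale of the spike-in probes the median of all genes was -1.22 in place of 0.08, with 379 genes higher and 7826 lower, so every difference below is relative to the bulk of genes and not an amount per cell. Fewer cells of a type and less RNA per cell cannot be told apart in these bulk samples.

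**Figure D1:**
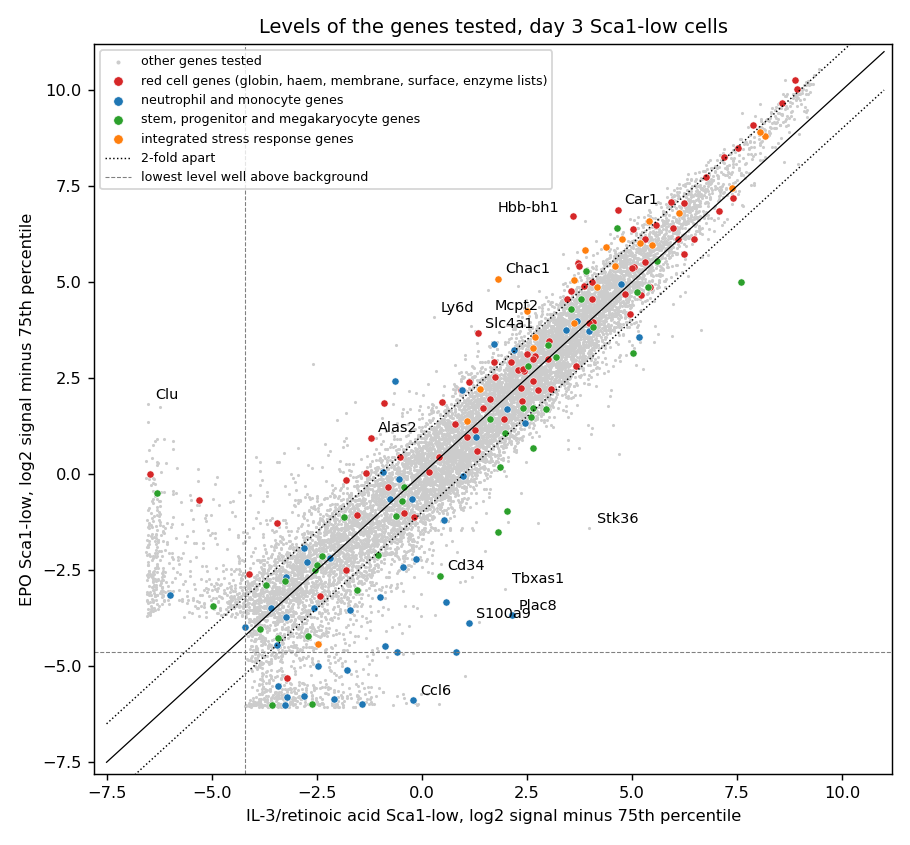
Each point is 1 of the 13017 genes tested, with its log2 level in IL-3/retinoic acid Sca1-low cells on the horizontal axis and in EPO Sca1-low cells on the vertical axis, and coloured points are members of gene lists. Red cell genes such as Hbb-bh1 (3.13) lie above the 2-fold line, while Plac8 (-5.81), Tbxas1 (-4.96) and Cd34 (-3.09) lie below it.

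The regulatory sequence of a few genes on which the results turn is shown here, from the RefSeq tables on build GRCm38.p6, 250 bases before to 50 after the annotated start and read along the gene's strand. Alas2, Rhd and Klf1 stand for the red cell genes that were higher with EPO, Chac1 for the stress response genes, and S100a9 for the neutrophil genes that were lower. Klf1 passed 2-fold only narrowly, and did not pass it with quantile scaling or with the trend by gene span removed.
Alas2: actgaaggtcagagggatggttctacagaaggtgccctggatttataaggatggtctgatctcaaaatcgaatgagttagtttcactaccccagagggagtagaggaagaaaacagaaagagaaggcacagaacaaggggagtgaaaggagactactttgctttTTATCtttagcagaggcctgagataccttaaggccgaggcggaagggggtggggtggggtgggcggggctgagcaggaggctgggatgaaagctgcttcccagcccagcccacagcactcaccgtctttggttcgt
Rhd: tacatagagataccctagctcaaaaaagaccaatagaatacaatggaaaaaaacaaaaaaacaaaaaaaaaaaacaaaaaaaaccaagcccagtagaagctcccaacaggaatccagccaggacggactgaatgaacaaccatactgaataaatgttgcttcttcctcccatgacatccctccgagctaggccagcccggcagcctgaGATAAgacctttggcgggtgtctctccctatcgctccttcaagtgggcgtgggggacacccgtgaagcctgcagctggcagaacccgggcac
Klf1: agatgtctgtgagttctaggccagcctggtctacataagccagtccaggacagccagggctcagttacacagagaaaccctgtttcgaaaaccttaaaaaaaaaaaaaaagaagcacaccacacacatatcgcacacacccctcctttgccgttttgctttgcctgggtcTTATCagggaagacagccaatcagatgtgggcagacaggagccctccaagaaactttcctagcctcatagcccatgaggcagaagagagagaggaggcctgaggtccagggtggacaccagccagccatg
Chac1: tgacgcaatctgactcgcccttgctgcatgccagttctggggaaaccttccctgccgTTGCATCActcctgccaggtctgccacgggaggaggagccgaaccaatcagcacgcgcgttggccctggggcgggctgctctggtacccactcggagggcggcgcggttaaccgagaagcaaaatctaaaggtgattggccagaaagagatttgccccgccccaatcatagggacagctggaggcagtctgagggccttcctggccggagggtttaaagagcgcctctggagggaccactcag
S100a9: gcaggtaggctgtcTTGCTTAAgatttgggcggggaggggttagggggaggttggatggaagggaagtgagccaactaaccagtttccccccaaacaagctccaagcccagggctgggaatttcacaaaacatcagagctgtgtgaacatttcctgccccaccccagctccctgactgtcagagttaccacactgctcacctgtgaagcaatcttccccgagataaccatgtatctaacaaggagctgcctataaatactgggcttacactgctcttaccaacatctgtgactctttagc
Capitals mark matches on either strand to the GATA motif GATAA in Alas2, Rhd and Klf1, to the composite C/EBP-ATF motif TGATGNAA in Chac1 and to the C/EBP motif TTNNGCAA in S100a9. The windows are chrX:150547167-150547466 for Alas2, chr4:134864286-134864585 for Rhd, chr8:84901732-84902031 for Klf1, chr2:119350992-119351291 for Chac1 and chr3:90695672-90695971 for S100a9, the last on the minus strand and the others on the plus strand. Each marked match was the single one of its motif in its window, and the GATAA matches began at -86 in Alas2, -42 in Rhd and -80 in Klf1 relative to the start. The S100a9 window also held 1 GATAA match. Such matches are common, since GATAA occurred in 25.8% of all 27025 RefSeq promoter windows, TGATGNAA in 4.06% and TTNNGCAA in 10.8%. GATAA was found in 24.7% of 1257 windows of higher genes, in 20.0% of 1353 windows of lower genes and in 18.2% of 10468 windows of all genes tested. For TTNNGCAA these shares were 11.1%, 8.65% and 8.76%, and for TGATGNAA 3.34%, 3.33% and 2.46%. These shares are a description and were not tested.

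Of the globins, a pair of embryonic ones had the largest excess in EPO Sca1-low cells. Hbb-bh1, an embryonic beta-like globin, stood at 6.73 in EPO Sca1-low cells and at 3.60 in IL-3/retinoic acid Sca1-low cells, an 8.77-fold difference. Hba-x, the embryonic alpha-like zeta globin, had levels of 1.86 in EPO cells and -0.90 in IL-3/retinoic acid cells, 6.74-fold higher. Adult globins differed less and were already abundant on both arrays. The adult alpha globin Hba-a1 was at 9.08 in EPO cells and 7.88 in IL-3/retinoic acid cells, against 1.19 in untreated cells, and the adult beta globin Hbb-bt was at 10.27 and 8.87, in the same order of treatments. Their differences of 1.20 and 1.40 shrank to 0.36 and 0.47 with quantile scaling, whereas Hbb-bh1 (2.69) and Hba-x (2.73) stayed past 2-fold. In all, 5 of 9 measured globins were higher and none lower, with a list median of 1.11 against 0.08 for all genes, and of 0.27 with quantile scaling. Cyclic loess left 2 higher and none lower, and removal of the trend with gene span left 2 higher and 2 lower. The near-identical adult copies may share probe signal, so they are uncertain as separate genes. Hbb-y, another embryonic beta-like globin, was at 7.18 in EPO cells and 7.40 in IL-3/retinoic acid cells, and its probes differed (-0.22 and -2.62). Globin probes held 1.22% of all gene signal on the EPO array, 0.809% on the IL-3/retinoic acid array and 0.156% on the untreated array.

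Among haem synthesis enzymes the first step differed most. Alas2, the erythroid form of the enzyme that begins the pathway, had a level of 0.95 in EPO cells and -1.21 in IL-3/retinoic acid cells, a 4.47-fold difference, and was not well above background in untreated cells. Alad, which acts next in the pathway, was at 6.39 in EPO cells and 5.04 in IL-3/retinoic acid cells. Urod, which acts further down, was at 8.26 in EPO cells and 7.19 in IL-3/retinoic acid cells. The final enzyme, Fech, which inserts iron, was nearly equal, at 4.68 in EPO cells and 4.85 in IL-3/retinoic acid cells. Of 19 measured haem genes 8 were higher and none lower, with a median of 0.43, and 4 remained higher under cyclic loess. Flvcr2, a transporter of the same list, was at 0.01 in EPO cells and not well above background in IL-3/retinoic acid, combined Sca1-low and untreated cells, at least 18.8-fold higher. Iron genes were less divided, with 1 of 16 higher and 1 lower.

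Red cell membrane and enzyme genes were higher in a minority of cases. Slc4a1, the band 3 anion exchanger, stood at 3.66 in EPO cells and 1.34 in IL-3/retinoic acid cells, 5.01-fold higher. Car1, a carbonic anhydrase of erythroid cells, was at 6.89 in EPO cells and 4.66 in IL-3/retinoic acid cells, 4.70-fold higher, and both of its probes showed the excess (2.02 and 2.23). Rhd, which encodes the Rh blood group protein, was at 5.49 in EPO cells and 3.71 in IL-3/retinoic acid cells. For comparison, untreated cells had -3.08 for Slc4a1, 2.71 for Car1 and -3.11 for Rhd, so both Sca1-low fractions lay above untreated cells for all 3 genes. Dmtn, an actin-bundling protein of the red cell skeleton, was well above background only on the EPO side, at -0.66, at least 11.7-fold higher than in IL-3/retinoic acid cells. In counts, 4 of 13 membrane skeleton genes, 4 of 17 surface genes and 6 of 24 enzyme genes were higher, and the only lower gene of the 3 lists was Bcam, a surface adhesion molecule (-2.11). The median of the membrane skeleton list was 0.04 and became -0.18 with quantile scaling, so its direction as a group is not settled, whereas surface genes (0.41 and 0.32) and enzyme genes (0.47 and 0.24) kept a positive sign.

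The regulators of the red cell programme hardly separated the arrays. Only Klf1, which activates adult globin and many red cell genes, passed 2-fold among 20 measured erythroid transcription factors, at 6.07 in EPO cells and 5.05 in IL-3/retinoic acid cells. Its difference of 1.01 was 0.60 with quantile scaling. Gata1, the central erythroid factor, was at 7.06 in EPO cells and 6.21 in IL-3/retinoic acid cells, and Gfi1b, a repressor it works with, at 7.20 and 6.40 in that order. Tal1, a partner of Gata1, was equal within 0.01. Epor, the EPO receptor, was at 5.38 in EPO cells and 5.01 in IL-3/retinoic acid cells, against 3.02 in untreated cells. The median of the list was 0.03 and turned to -0.23 with quantile scaling.

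**Figure D2:**
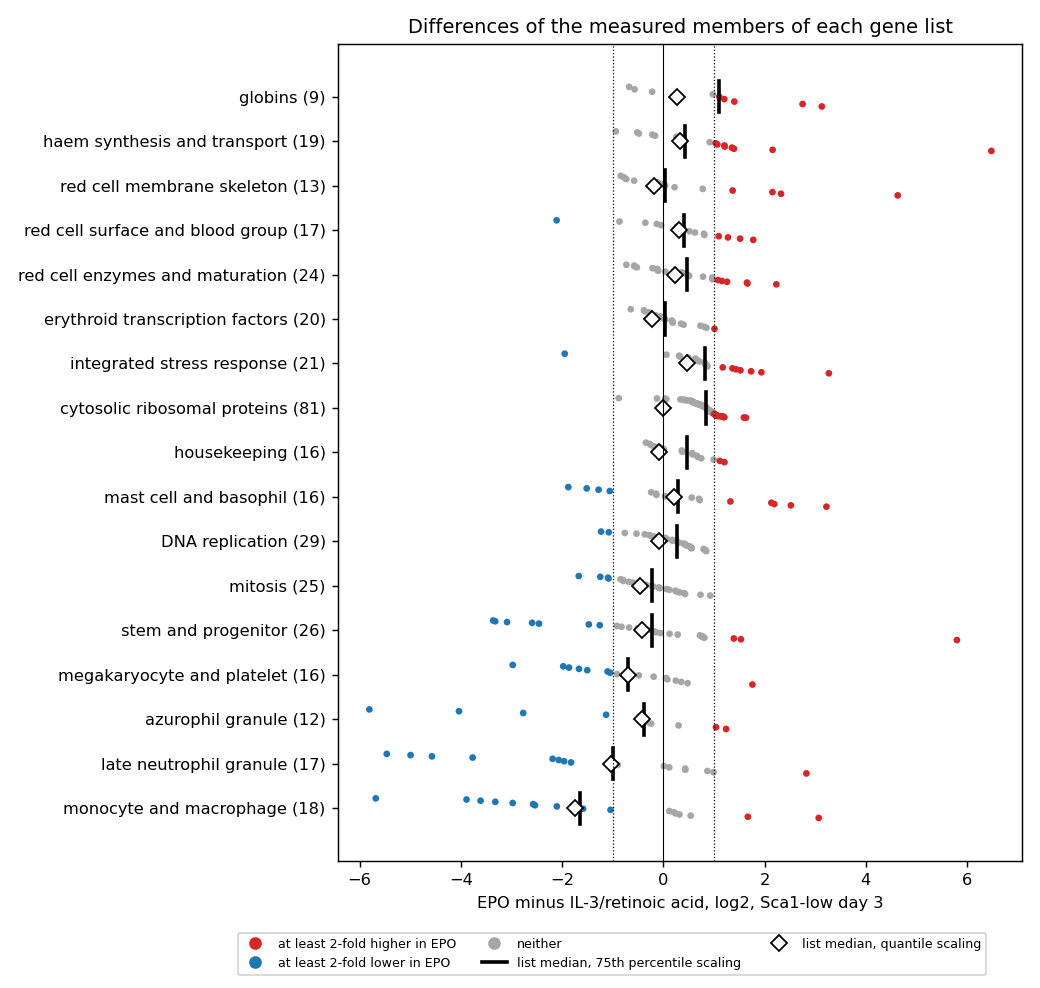
Each dot is 1 measured gene of the list named on the left (number measured in brackets), placed by its log2 difference, EPO minus IL-3/retinoic acid, in Sca1-low cells. Bars are list medians under the 75th percentile scaling and diamonds those under quantile scaling, which differ most for ribosomal protein genes (0.85 and 0.00) and globins (1.11 and 0.27) and little for monocyte genes (-1.65 and -1.74).

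Many monocyte and neutrophil genes were lower with EPO. Of 18 measured monocyte and macrophage genes 11 (61.1%) were lower in EPO Sca1-low cells and 2 (11.1%) higher. Over all genes 13.1% were lower and 12.1% higher. Genes dim with EPO could enter only through the IL-3/retinoic acid array, and of 968 such genes 683 were lower. Monocyte genes were dim, with median levels of -3.40 in EPO cells and -0.75 in IL-3/retinoic acid cells. All genes are therefore not a matched yardstick for these counts. The list median was -1.65. That median was -1.74 with quantile scaling, -1.30 with dim genes at their bound, -0.995 with the mean of all probes of a gene and -0.72 with normexp and quantile normalization. Ccl9, a chemokine of myeloid cells, had a level of -3.32 in EPO cells and 0.57 in IL-3/retinoic acid cells, a 14.8-fold difference. Ccl6, a related chemokine, was not well above background in EPO cells (-5.88) and stood at -0.20 in IL-3/retinoic acid cells, at least 21.3-fold lower with EPO. The exceptions were Lgals3, a galactoside-binding lectin of macrophages, at 2.44 in EPO cells and -0.63 in IL-3/retinoic acid cells, and Csf1r, the receptor for the macrophage growth factor, at 3.38 and 1.72 in that order. Both probes of Csf1r were higher, by 0.69 and 1.67.

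Late neutrophil genes were lower in 9 of 17 measured cases (52.9%) and higher in 1 (5.88%), with a median of -1.003. Their list is not confined to granule proteins and also holds genes such as Stfa1. The median was -0.46 with normexp and quantile normalization and -1.50 with the trend by gene span removed. This list too was dim, with median levels of -3.15 in EPO cells and -1.42 in IL-3/retinoic acid cells. All genes are not a matched yardstick here either. S100a9, which encodes a calcium-binding protein abundant in neutrophils, stood at -3.88 in EPO cells, not well above background, and at 1.11 in IL-3/retinoic acid cells, at least 31.8-fold lower with EPO. Stfa1, a stefin protease inhibitor of neutrophils, was at -4.64 in EPO cells, not well above background, and at 0.83 in IL-3/retinoic acid cells, at least 43.5-fold lower. In untreated cells neither S100a9 nor Stfa1 was well above background. Ncf1, a subunit of the phagocyte oxidase, was measured on both arrays and was 4.55-fold lower with EPO, at -3.19 in EPO cells. The gene of the list that was higher, Ngp, a granule protein, was at -3.15 in EPO cells and not well above background in IL-3/retinoic acid cells, at least 2.09-fold higher.

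Azurophil granule genes, which are made earlier in granulocyte development, were split, with 4 of 12 (33.3%) lower and 2 (16.7%) higher. Cyclic loess left 1 higher and removal of the trend with gene span none, with 4 lower in both. Mpo, the myeloperoxidase gene, was at 1.71 in EPO cells and 2.03 in IL-3/retinoic acid cells, against 8.24 in untreated cells, so both Sca1-low fractions lay far below untreated cells. Ctsg, the cathepsin G gene, was at 1.34 in EPO cells, 2.47 in IL-3/retinoic acid cells and 8.09 in untreated cells. Elane, the neutrophil elastase gene, was higher with EPO, at 3.23 in EPO cells and 2.19 in IL-3/retinoic acid cells. Plac8, a small cysteine-rich protein of myeloid cells, differed most and counts among the 4 lower, though it is not an azurophil granule enzyme. Its level was -3.67 in EPO cells, not well above background, and 2.14 in IL-3/retinoic acid cells, at least 56.0-fold lower with EPO. Both probes of Plac8 were lower, by 3.23 and 5.81 on the log2 scale.

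Among 18 measured myeloid transcription factors 3 were higher and 3 lower. Cebpe, which drives terminal granulocyte maturation, was not well above background in EPO cells (-4.69) and stood at -0.44 in IL-3/retinoic acid cells and at 1.04 in untreated cells. Klf4, a factor of monocyte maturation, was likewise not well above background in EPO cells, at least 7.17-fold lower than in IL-3/retinoic acid cells (-1.77). Bhlhe40, a transcriptional repressor, was at -3.02 in EPO cells and -0.98 in IL-3/retinoic acid cells. Egr2, an early response factor of macrophage development, was 6.84-fold higher with EPO, at 0.59 in EPO cells and -2.18 in IL-3/retinoic acid cells. Cebpd, a factor of the C/EBP family, was also higher, at 4.20 in EPO cells and 2.36 in IL-3/retinoic acid cells. Spi1, the gene of the myeloid master regulator PU.1, was at -1.60 in EPO cells and -2.09 in IL-3/retinoic acid cells, under the 2-fold threshold.

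Progenitor and megakaryocyte genes were more often lower than higher in EPO Sca1-low cells, with 7 of 26 and 7 of 16 lower against 3 and 1 higher, beside 13.1% lower and 12.1% higher over all genes. Cd34, a progenitor surface protein, was at -2.64 in EPO cells and 0.44 in IL-3/retinoic acid cells, an 8.50-fold difference, against 6.92 in untreated cells. The mean of all probes of Cd34, of which 1 was measured above background, gave a difference of -1.69. Angpt1, a ligand of the Tie2 receptor made by progenitors, stood at -1.51 in EPO cells and 1.81 in IL-3/retinoic acid cells. Meis1, a homeobox factor of stem cells, was not well above background in EPO cells and stood at -2.62 in IL-3/retinoic acid cells. Kit, the stem cell factor receptor, was nearly equal, at 3.04 in EPO cells and 3.19 in IL-3/retinoic acid cells. Of the platelet line, Itgb3, the integrin beta-3 chain, was 7.86-fold lower with EPO, at -0.95 in EPO cells and 2.03 in IL-3/retinoic acid cells. Fli1, an ETS factor of megakaryocytes, was at 0.19 in EPO cells and 1.85 in IL-3/retinoic acid cells. Pf4, a platelet chemokine, went the other way, at 6.42 in EPO cells and 4.65 in IL-3/retinoic acid cells. The medians were -0.23 for progenitor and -0.70 for megakaryocyte genes.

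Enzymes of thromboxane formation and a few leukocyte genes were among the 15 genes farthest down with signal on both arrays. Tbxas1, thromboxane synthase, stood at -2.99 in EPO cells and 1.97 in IL-3/retinoic acid cells, 31.1-fold lower with EPO. Ptgs1, the cyclooxygenase that supplies its substrate pathway, was at -1.25 in EPO cells and 2.05 in IL-3/retinoic acid cells. Tmsb4x, an actin-binding thymosin, was at 0.52 in EPO cells and 4.69 in IL-3/retinoic acid cells, and S100a4, a calcium-binding protein, at -2.67 and 1.19 in that order. For S100a4 both probes were lower, by 1.93 and 3.86 on the log2 scale. The remaining 11 included Lilrb4a, an inhibitory leukocyte receptor (-3.50), and Stk36, a kinase (-5.39), the lowest of the 15. Stk36 was at 3.99 in IL-3/retinoic acid Sca1-low cells but at -1.40 in EPO, -1.91 in combined Sca1-low and -1.51 in untreated cells, so here the IL-3/retinoic acid array stood alone. It too had 1 measured probe, and the mean of all its probes gave -2.63.

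**Figure D3:**
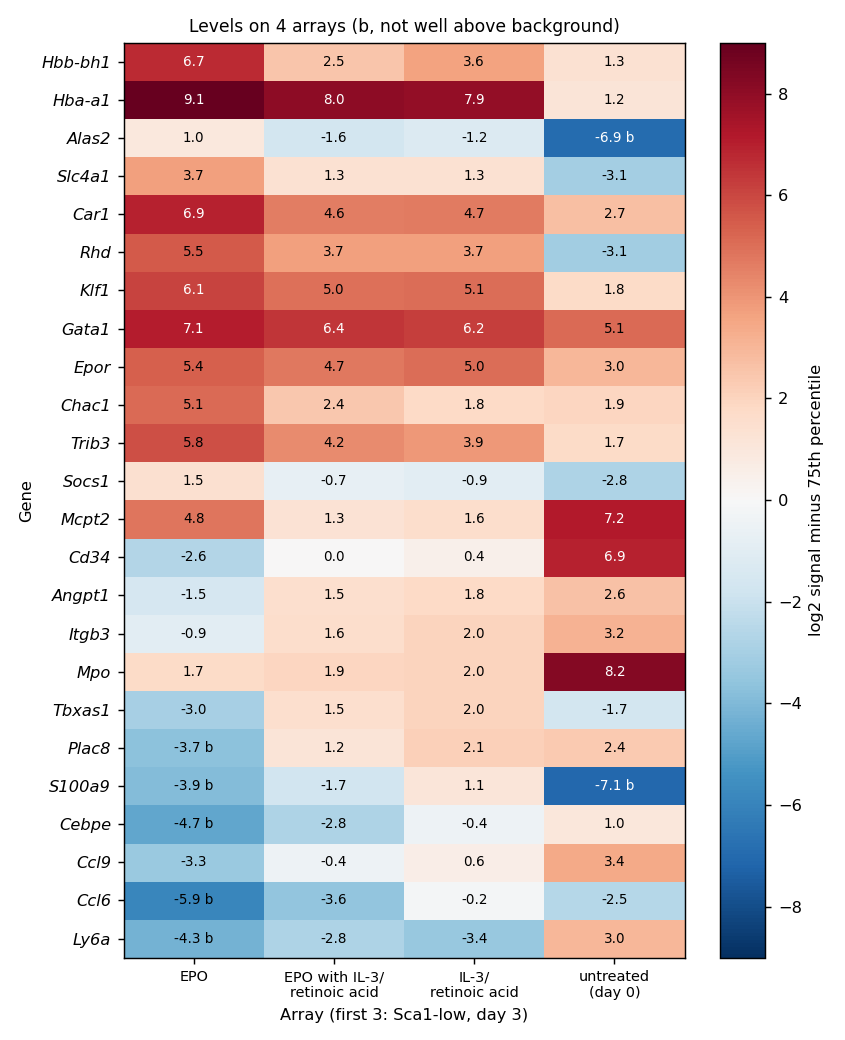
Colours and numbers give the log2 level of 24 genes on the Sca1-low arrays of EPO, combined and IL-3/retinoic acid cells and on the untreated array, with b for levels not well above background. The combined array resembles the IL-3/retinoic acid array in most genes shown, for example Hbb-bh1 at 2.47 in combined cells, 3.60 in IL-3/retinoic acid cells and 6.73 in EPO cells.

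Genes of the integrated stress response, which cells switch on when translation factor eIF2 is phosphorylated, leaned towards EPO as a group. Of 21 measured, 20 had a positive difference, against 6969 of 13017 over all genes, and 7 were at least 2-fold higher and 1 lower. The median of 0.83 was 0.46 with quantile scaling. In Sca1-high cells the list had a median of 0.01, and at day 6 it had 0.89. Over all genes these medians were 0.03 and 0.28. The Sca1-low difference of genes at large also moved with their level. Its median was 0.38 in the brightest of 4 groups and -0.15 in the second dimmest. Stress response genes were bright, with a median level of 5.42 in EPO cells. All genes are therefore not a matched yardstick for their sign count. Cyclic loess left 5 higher genes and removal of the trend with gene span left 4, with 1 lower in both. Chac1, a glutathione-degrading enzyme induced by this response, stood at 5.09 in EPO cells and 1.82 in IL-3/retinoic acid cells, 9.65-fold higher. Trib3, a pseudokinase of the same response, was at 5.83 in EPO cells and 3.89 in IL-3/retinoic acid cells, and Nupr1, a stress-induced chromatin protein, at 4.24 and 2.51 in that order. Untreated cells had 1.94 for Chac1, 1.74 for Trib3 and -1.36 for Nupr1. The single lower gene was Slc7a11, a cystine transporter, which was not well above background in EPO cells and stood at -2.47 in IL-3/retinoic acid cells.

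Feedback genes of cytokine signalling were called about as often as genes at large. Of 26 measured, 3 (11.5%) were higher and 3 (11.5%) lower, beside 12.1% and 13.1% over all genes. Socs1, an inhibitor of JAK kinases, was at 1.46 in EPO cells and -0.94 in IL-3/retinoic acid cells, 5.25-fold higher. Cish, a STAT5 target, was at 5.29 in EPO cells and 4.34 in IL-3/retinoic acid cells, both above untreated cells (-0.13). Myc, a growth regulator, was at 5.29 in EPO cells and 3.90 in IL-3/retinoic acid cells. Among 27 cytokine receptors 4 (14.8%) were higher and 8 (29.6%) lower. The lower ones included Il5ra, the interleukin-5 receptor, not well above background in EPO cells and at -1.82 in IL-3/retinoic acid cells. Lepr, the leptin receptor, was higher, at 5.37 in EPO cells and 3.48 in IL-3/retinoic acid cells.

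Retinoic acid genes did not separate as a list, with 3 of 17 (17.6%) higher, 3 (17.6%) lower and a median of 0.04. Dhrs3, an enzyme that returns retinal to retinol and is induced by retinoic acid, was at 0.02 in EPO cells and 1.51 in IL-3/retinoic acid cells, but at 3.31 in untreated cells. Cyp26b1, which degrades retinoic acid, was not well above background in EPO cells and stood at -2.26 in IL-3/retinoic acid cells.

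Mast cell genes split within the list, with 5 of 16 (31.25%) higher and 4 (25%) lower, beside 12.1% and 13.1% over all genes. Mcpt2, a mast cell protease, was 9.34-fold higher with EPO, at 4.80 in EPO cells and 1.57 in IL-3/retinoic acid cells. Mcpt4, another protease of the family, was at 2.34 in EPO cells and 0.15 in IL-3/retinoic acid cells, and Hdc, which makes histamine, at 1.69 and -0.45 in that order. Cpa3, the mast cell carboxypeptidase, was lower, at 1.47 in EPO cells and 2.75 in IL-3/retinoic acid cells. All 4 had been higher in untreated cells, at 7.16 for Mcpt2, 6.40 for Mcpt4, 3.31 for Hdc and 8.28 for Cpa3.

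The cell cycle and survival lists had calls on the lower side only. Of 29 DNA replication genes none was higher and 2 (6.90%) were lower. Of 25 mitosis genes none was higher and 4 (16%) were lower, beside 12.1% higher and 13.1% lower over all genes. Lower mitosis genes included Mki67, a proliferation marker, at 5.71 in EPO cells and 6.80 in IL-3/retinoic acid cells. Bcl2, the survival gene, was 4.03-fold lower with EPO, at -0.87 in EPO cells and 1.15 in IL-3/retinoic acid cells. Bnip3, a mitochondrial protein of the same family, was at 3.11 in EPO cells and 4.72 in IL-3/retinoic acid cells. Of the 13 measured members of that family 3 (23.1%) were lower and none was higher. Ribosomal protein genes had positive differences in 79 of 81 cases, with 17 higher, none lower and a median of 0.85. That median was 0.00 with quantile scaling and 0.09 with cyclic loess, and the housekeeping median of 0.47 was -0.0915 and -0.0801 under the same scalings, so the direction of both lists depended on the scaling.

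At the upper end the genes farthest apart with signal on both arrays included Anxa2, a membrane-binding annexin, at 0.45 in EPO cells and -3.95 in IL-3/retinoic acid cells, and Ly6d, a surface protein of the Ly6 family, at 4.09 and 0.29 in that order. Gng13, a G protein gamma subunit, was at 3.37 in EPO cells and -0.62 in IL-3/retinoic acid cells. Both Ly6d and Gng13 were also higher with EPO in Sca1-high cells (4.41 and 3.19) and at day 6 (9.55 and 9.12, as measured). On the day 6 array of the IL-3 arm Ly6d (-6.16) and Gng13 (-6.39) lay under the lowest level well above background (-4.26). Their day 6 differences are therefore not measured sizes. Other genes at this end were mixed. In Sca1-high cells and at day 6, Anxa2 had -0.21 and -3.16 and Gk5 0.24 and -2.16. Defb45 had 2.24 and 1.94 and Mcpt2 4.72 and 0.93, in the same order. The first of the list, Tcp11l1, had a difference of 5.46 at one probe and 0.13 at the other. Of genes with signal only on the EPO side, Clu, the clusterin gene, was farthest, at 1.83 in EPO cells and at least 65.9-fold higher than in IL-3/retinoic acid cells. Of the 10 leading genes of that kind 6 were well above background on none of the other 8 arrays, and in all 193 of the higher genes had signal on the EPO Sca1-low array alone, against 154 of the lower genes with signal on the IL-3/retinoic acid Sca1-low array alone. Olfactory and vomeronasal receptor genes, which blood cells are not known to use, numbered 1327 on the array. Of these 241 were tested, with 106 higher and 39 lower, beside 12.1% and 13.1% over all genes. They entered only through signal on these same arrays, so a high share called follows in part from that filter.

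The same treatment difference was set beside its counterpart in the Sca1-high fraction, which used other arrays of the same slide. There 6.81% of 14095 genes were higher and 8.96% lower. Of the 1581 genes higher in Sca1-low cells 165 were also higher in Sca1-high cells, 10.4% of the first list and 17.2% of the other, and 62 were lower. Of the 1708 lower genes 271 were also lower in Sca1-high cells, 15.9% of the first list and 21.5% of the other, and 55 were higher. The correlation of the differences was 0.23 (Pearson) and 0.21 (Spearman), a description over genes that share slide and labelling. It covers the 10639 genes well above background in EPO and IL-3 cells of both fractions and of day 6. Genes dim on any of these arrays, such as S100a9, were left out of it. Late neutrophil genes had medians of -1.003 in Sca1-low and -3.49 in Sca1-high cells, while monocyte genes had -1.65 and -0.66 and megakaryocyte genes -0.70 and 0.50. S100a9 stood at -4.52 with EPO and 6.13 with IL-3/retinoic acid in Sca1-high cells, while its Sca1-low difference is only a bound. Epor differed by 0.37 in Sca1-low and 2.09 in Sca1-high cells, and Klf1 by 1.01 and 2.40. The difference between the fractions was not tested.

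**Figure D4:**
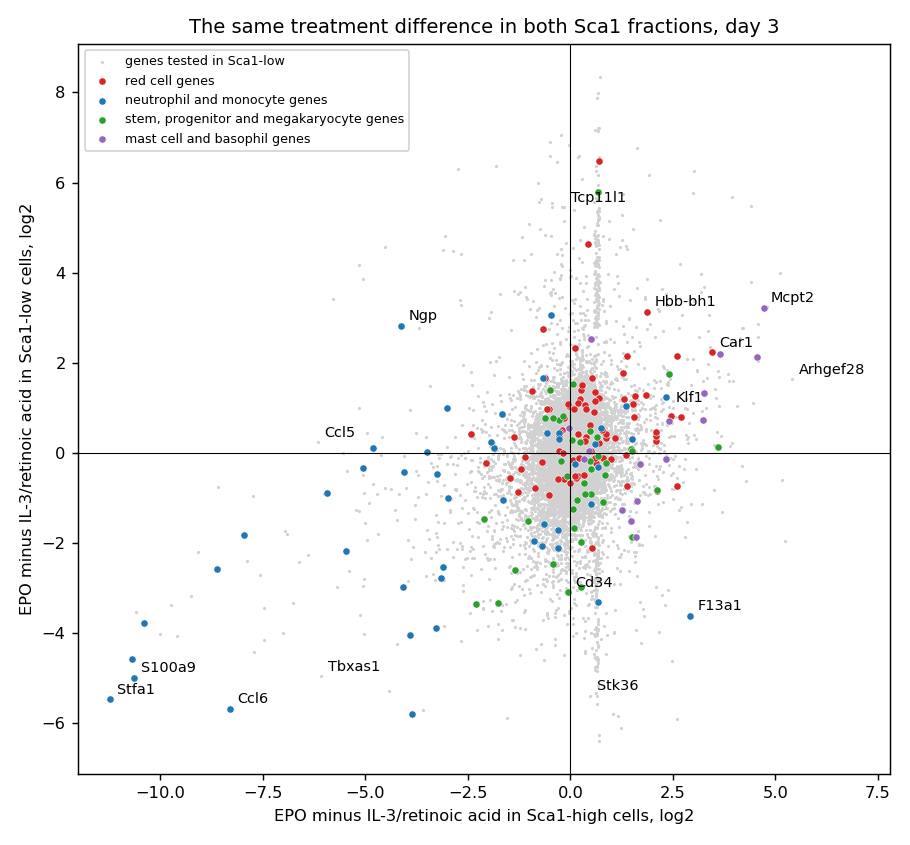
Each point is a gene tested in Sca1-low cells, with the log2 difference, EPO minus IL-3/retinoic acid, in Sca1-high cells on the horizontal axis and in Sca1-low cells on the vertical axis. Late neutrophil genes reach farther down on the Sca1-high axis (S100a9 at -10.65) than on the Sca1-low axis (S100a9 at -4.99, not well above background with EPO). Monocyte genes do not as a list, with medians of -0.66 on the Sca1-high and -1.65 on the Sca1-low axis. Ngp takes opposite signs.

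At day 6, when the IL-3 arm had also received GM-CSF and no Sca1 fraction is named, 18.8% of 13021 genes were higher and 19.9% lower with EPO. Of the higher genes of day 3 Sca1-low cells 25.7% were also higher at day 6, which was 16.7% of the day 6 list, and of the lower genes 36.2% were also lower, which was 23.8% of it. Globins had a median of 6.64 at day 6, against 1.11 in day 3 Sca1-low cells, and late neutrophil genes had -10.57 and -1.003. The day 6 medians use levels as measured, including dim ones. With EPO at day 6, S100a9 (-5.80) and Stfa1 (-5.72) lay under the lowest level well above background (-4.33), so such differences are only bounds. Alas2 differed by 11.24 at day 6 and by 2.16 at day 3, and Mcpt2 by 0.93 and 3.22.

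Combined Sca1-low cells, which lay on another slide, received EPO as well. Over 11446 genes measured on the 3 Sca1-low arrays the median absolute difference was 0.53 between EPO and IL-3/retinoic acid cells, 0.53 between combined and EPO cells, and 0.14 between combined and IL-3/retinoic acid cells. These pairs share arrays and are not independent, and both larger values involve the dim EPO array. At least 2-fold differences were found in 2094 genes, or 18.3%, between EPO and IL-3/retinoic acid, and in 278 genes, or 2.43%, between combined and IL-3/retinoic acid. Alas2 was at -1.65, Slc4a1 at 1.35 and Chac1 at 2.39 in combined cells, near the IL-3/retinoic acid levels above. S100a9 lay between, at -3.88 in EPO cells, -1.73 in combined cells and 1.11 in IL-3/retinoic acid cells, as did Cebpe at -4.69, -2.78 and -0.44. In the Sca1-high fractions the order was the reverse. There the median absolute difference was 0.25 between EPO and IL-3/retinoic acid cells and 0.35 between combined and IL-3/retinoic acid cells.

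In detail, the difference moved with the length of the gene. When genes were ordered by their span in the RefSeq annotation and split into 4 groups of nearly equal size, the median difference was 0.53 in the shortest group, 0.23 and -0.08 in the next ones and -0.35 in the longest. Cyclic loess left 0.29 in the shortest and -0.45 in the longest group. In the shortest group 17.4% of genes were higher and 3.75% lower, and in the longest 5.77% were higher and 16.6% lower. The EPO minus IL-3/retinoic acid difference of Sca1-high cells stayed between 0.00 and 0.07 over the same groups, and the combined minus IL-3/retinoic acid difference of Sca1-low cells between -0.08 and -0.02. With the median of 20 span bins removed, a step added after the values were seen, 1222 genes were higher and 1608 lower. The ribosomal median was then 0.27, the globin median 0.39, the stress response median 0.68 and the monocyte median -1.72. Called genes then numbered 3 higher in the haem list, 2 in the surface list, 4 in the enzyme list and 2 among ribosomal proteins. Hbb-bh1 (2.42), Alas2 (2.08), Slc4a1 (2.17), Car1 (2.44) and Chac1 (2.67) remained past 2-fold, and Klf1 (0.41) and Hba-a1 (0.49) did not. The part of RNA quality or labelling in this pattern was not tested.

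**Figure D5:**
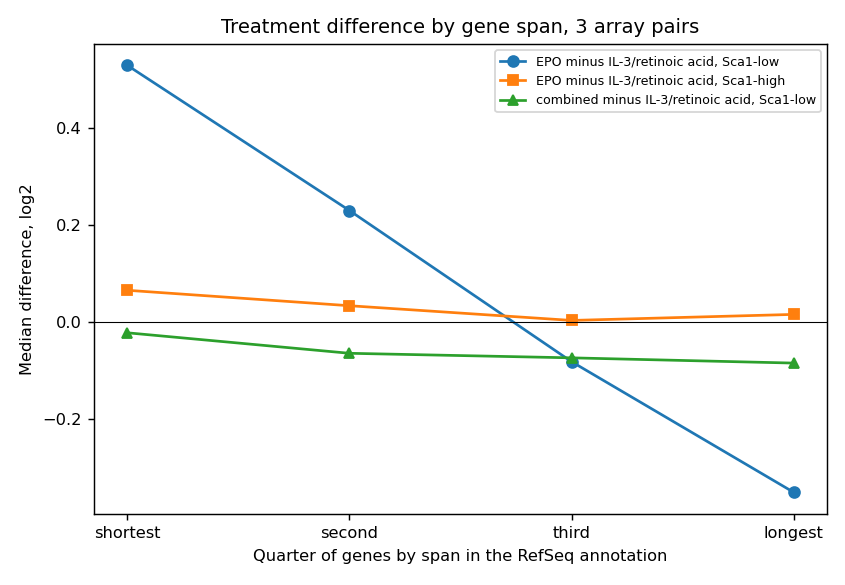
The horizontal axis gives the 4 groups of genes by span, from shortest to longest, and the vertical axis the median log2 difference in 3 array pairs. The EPO minus IL-3/retinoic acid pair of Sca1-low cells runs from 0.53 to -0.35, and the other pairs stay between -0.08 and 0.07.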

How the data were processed

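Spot intensities were deposited by the authors as Agilent Feature Extraction 11.0.1.1 output of 1-colour arrays with 60-base probes, per the file headers. Per the labels' protocols, total RNA of sorted cells was labelled from an oligo-dT primer with Cy3. Of 62976 spots, 59305 were not controls and held 55681 probes, of which 27229 were named through RefSeq accessions. Spots marked as outliers were left out, the 75th percentile of each array was subtracted from log2 of the processed intensity, spots of a probe were averaged and the brightest probe of a gene was kept. A gene was called at 2-fold or more if well above background on the brighter side. The number of arrays, 1 per condition, limits the precision. The series text mentions duplicates, which were not analysed here.

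Alternatives used limma 3.58.1 in R 4.3.3 and Python 3.11.15. Normexp with an offset of 50 was planned on the mean signal, which the files do not hold, and was run on the median signal. The steps were tested on simulated data. Members, lists and the rule for named genes were chosen with earlier results of these data known. The rule took the 15 highest and 15 lowest genes with signal on both arrays, 10 at each end with signal on 1, 8 at each end by distance from the Sca1-high difference, members of the lists, listed transcription factors at least 4-fold apart, and Ly6a. Clone-type symbols were left out. The 28452 unnamed probes were not used for genes.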

Additional observations from a re-analysis of the deposited data

Results flagged for a closer look

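Some listed or named genes were at least 2-fold apart in opposite directions in the Sca1 fractions, each on 1 array a side. This held for 17 of 632 such genes, or 2.69%, and for 117 of 12410 genes tested in both fractions, or 0.943%. The 632 include genes named for their distance from the Sca1-high difference, among them Rgs1, Hmga2, Dach1 and Il6. The higher share among them is thus partly built in by that rule, and these shares cannot be compared. The difference between the fractions was not tested. In the following, the Sca1-low difference, EPO minus IL-3/retinoic acid, comes first and the Sca1-high difference follows it, both as measured. For 8 of the 17 a level not well above background enters, so their differences are only bounds. With such levels raised to the lowest level well above background, the Sca1-low difference was -0.90 for Bcl6 and -0.81 for Mcpt8, both under 2-fold, -2.80 for Il5ra, -4.53 for Lhfpl2 and 1.06 for Ngp, whose Sca1-high difference became -2.46. The Sca1-low differences of Cyp26b1, F13a1 and Il6st are bounds as printed below, since their EPO levels lay above that limit.

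Genes lower with EPO in Sca1-low and higher in Sca1-high cells included several of mast cells, basophils and eosinophils. These were Cpa3 (-1.28 and 1.25), Mcpt8, a basophil protease (-1.88 and 1.60), Slc18a2, a vesicular amine transporter (-1.51 and 1.49), Il1rl1, the interleukin-33 receptor (-1.06 and 1.62), and Il5ra (-3.05 and 2.38). Cytokine genes of that pattern were Il6 (-1.21 and 2.70) and Il6st, the shared signal chain of its receptor (-1.02 and 2.49). F13a1, coagulation factor XIII (-3.61 and 2.92), Plek, a platelet kinase substrate (-1.86 and 1.49), and Rgs1, a G protein regulator (-1.86 and 2.80), did the same. So did the transcription factors Bcl6 (-1.54 and 2.84) and Dach1 (-1.86 and 2.07), the chromatin protein Hmga2 (-1.13 and 2.94) and the retinoic acid enzyme Cyp26b1 (-1.95 and 1.04). Lhfpl2, a membrane protein, had -5.90 and 2.59. The opposite pattern was seen for Ngp (2.83 and -4.13) and Tgm2, a transglutaminase induced by retinoic acid (1.00 and -2.48).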

How the results depend on the processing

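Higher and lower counts of 1581 and 1708 stayed within 1.5 times under quantile scaling, the median scaling, cyclic loess, the series matrix, which holds identical values, kept outlier spots, the mean of all probes, no filter on dim probes and bounded differences. Normexp with quantile scaling gave 728 higher and 1036 lower genes, a 4-fold threshold 442 and 517, and signal on both arrays 1090 and 1025. Spike-in scaling, added after the data were seen, gave 379 and 7826, and under it the median of all 31 lists was negative, among them globins -0.20, haem -0.87, iron -1.05, red cell surface -0.89, red cell enzymes -0.84, myeloid transcription factors -1.06, mast cell -1.01, B lymphoid -0.78, STAT5 -1.02, DNA replication -1.04, stress response -0.47, sterol -1.05, housekeeping -0.83 and ribosomal -0.45. DNA replication was 0.26 and became -0.0869 with quantile scaling, -0.10 with cyclic loess and -0.0872 with normexp, and housekeeping became -0.0915, -0.0801 and -0.0601. The cytokine receptor median of -0.14 was 0.0582 with the mean of all probes. The cause was not tested. No paired analysis was possible because each group has 1 array. Leaving out an array leaves no comparison.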

Other observations

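Interferon response genes had no common direction, with 3 of 13 higher, 1 lower and a median of -0.09. Trim30a, an interferon-induced regulator, had no signal well above background with EPO and was at least 2.85-fold lower, while Bst2, a surface restriction factor, was at 4.46 in EPO cells and 3.41 in IL-3/retinoic acid cells. Of 15 p53 targets 1 was higher and 3 were lower, with Gdf15, a stress-induced cytokine, at -0.97 in EPO cells and -2.68 in IL-3/retinoic acid cells and Mdm2, which marks p53 for degradation, at 3.71 and 5.14 in that order. Fatty acid synthesis gave 2 lower genes of 24 sterol and fatty acid genes, Acaca, the carboxylase that begins the pathway (-1.50 over 3 probes that ran from -1.77 to -1.45), and Elovl6, an elongase (-1.45). The higher one was Fdps, a sterol pathway enzyme (1.21, and 0.67 with quantile scaling). Few genes of other blood lineages were measured, with 1 of 4 eosinophil genes higher and 2 lower, 2 of 6 B lymphoid genes higher and none lower, and 1 of 9 T and NK genes higher and 2 lower. Glycolysis genes had 2 of 26 higher, 1 lower and a median of -0.05, and cell cycle inhibitors none of 12 higher and 1 lower. Of 12258 unnamed probes tested, 2382 were higher and 2577 lower.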
